A study of Homo sapiens with 7 samples.

Results

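The regions described here are the deposited peaks in and around the 4 human HOX clusters, HOXA, HOXB, HOXC and HOXD, in HT1080 cells. The members were all peaks of 7 lists that fell in 4 windows of hg19, each a cluster with 100 kb on either side: chromosome 7 from 27032000 to 27350000 (HOXA), chromosome 17 from 46506000 to 46906000 (HOXB), chromosome 12 from 54232000 to 54550000 (HOXC) and chromosome 2 from 176857000 to 177155000 (HOXD). The windows held 34 of the 148917 deposited peaks. Merging peaks that overlap by at least 1 bp left 30 regions of 113740 in the whole series. Positions alone chose the members among the deposited peaks, which were themselves called from the reads.

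HT1080 is a human fibrosarcoma line. The cells carried an siRNA that targets the kinase VRK1 (siVRK1) or a non-targeting one (siControl), and fixed, sonicated chromatin was immunoprecipitated with antibodies against VRK1, against histone H2A phosphorylated at threonine T120 (pT120) or against H2A ubiquitylated at lysine K119 (ubK119). The pT120 and ubK119 antibodies and the input DNA, which is unprecipitated chromatin, were sequenced after either siRNA, the VRK1 antibody after siControl alone. This gave 5 antibody libraries and 2 input libraries of 20687408 to 40442635 reads, with 1 library per condition. No difference therefore has a replicate check, no p-value is given, and each comparison is one of libraries. The intervals given are 95% intervals and cover counting error alone. They take reads as independent, but copies made by PCR were not told apart by molecular identifiers, so the intervals may be too narrow. No VRK1 library of siVRK1 cells was analysed here, so the depletion of VRK1 is unchecked, and an effect of the siRNA cannot be told apart from a difference between single libraries.

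HOX genes encode homeodomain transcription factors that give the body axis and the limbs their regional identity, and within each cluster they lie in the order in which they are used along the axis. In cells that do not use them, they are textbook targets of Polycomb repression. The Polycomb complex PRC1 contains the ubiquitin ligases RING1 and RNF2, which place ubK119 on H2A, while PRC2 methylates lysine K27 of histone H3. T120 is the residue next to K119 on the same H2A tail, and VRK1 is a nuclear kinase that phosphorylates histones. The 38 HOX genes of the member list were placed by name and order only, from a RefSeq annotation of another build (GRCh38.p14). On that order HOXA13 and HOXB13 lie at the upper ends of their clusters, whereas HOXC13 and HOXD13 lie at the lower ends. HOXD13 is preceded by EVX2, a homeobox gene of the even-skipped type, and HOXD1 is followed by MTX2, which encodes a mitochondrial outer membrane protein. No position was carried from one build to the other, so a peak below is given by its place in the window and not by a gene, exon or promoter, and no sequence of a region could be read.

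The first question was whether the clusters stood out in the ubK119 lists as Polycomb targets would. Their ubK119 peaks were not denser than those beside them. The clusters without their 100 kb margins, 0.534 Mb in all, held 0 peaks of the siControl ubK119 list and 1 of the siVRK1 ubK119 list, where 5.21 and 2.90 peaks would lie at the density of the 2 Mb on each side. The exact interval of a count of 0 reaches 6.91 siControl ubK119 peaks per Mb, against 9.75 per Mb (8.28 to 11.4) in the 16 Mb of flanks and 9.73 per Mb in the genome. The ratio to the flanks was 0 with an upper bound of 0.717 for siControl ubK119. For siVRK1 ubK119 it was 0.344 (0.00862 to 1.97), an interval that includes 1. Of the 156 siControl ubK119 peaks in the 2 Mb flanks, 38 lay in the nearest 1 Mb, so the density was lower close to the windows. The clusters without margins were not compared with that nearest 1 Mb. The label of these clusters as Polycomb targets thus rests on background knowledge and not on the ubK119 peaks of these files, and the regions are called the HOX windows here. The lists hold reads only where a library had a peak, so a level of ubK119 spread over a cluster below the height needed for a peak was not measured.

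**Figure D1:**
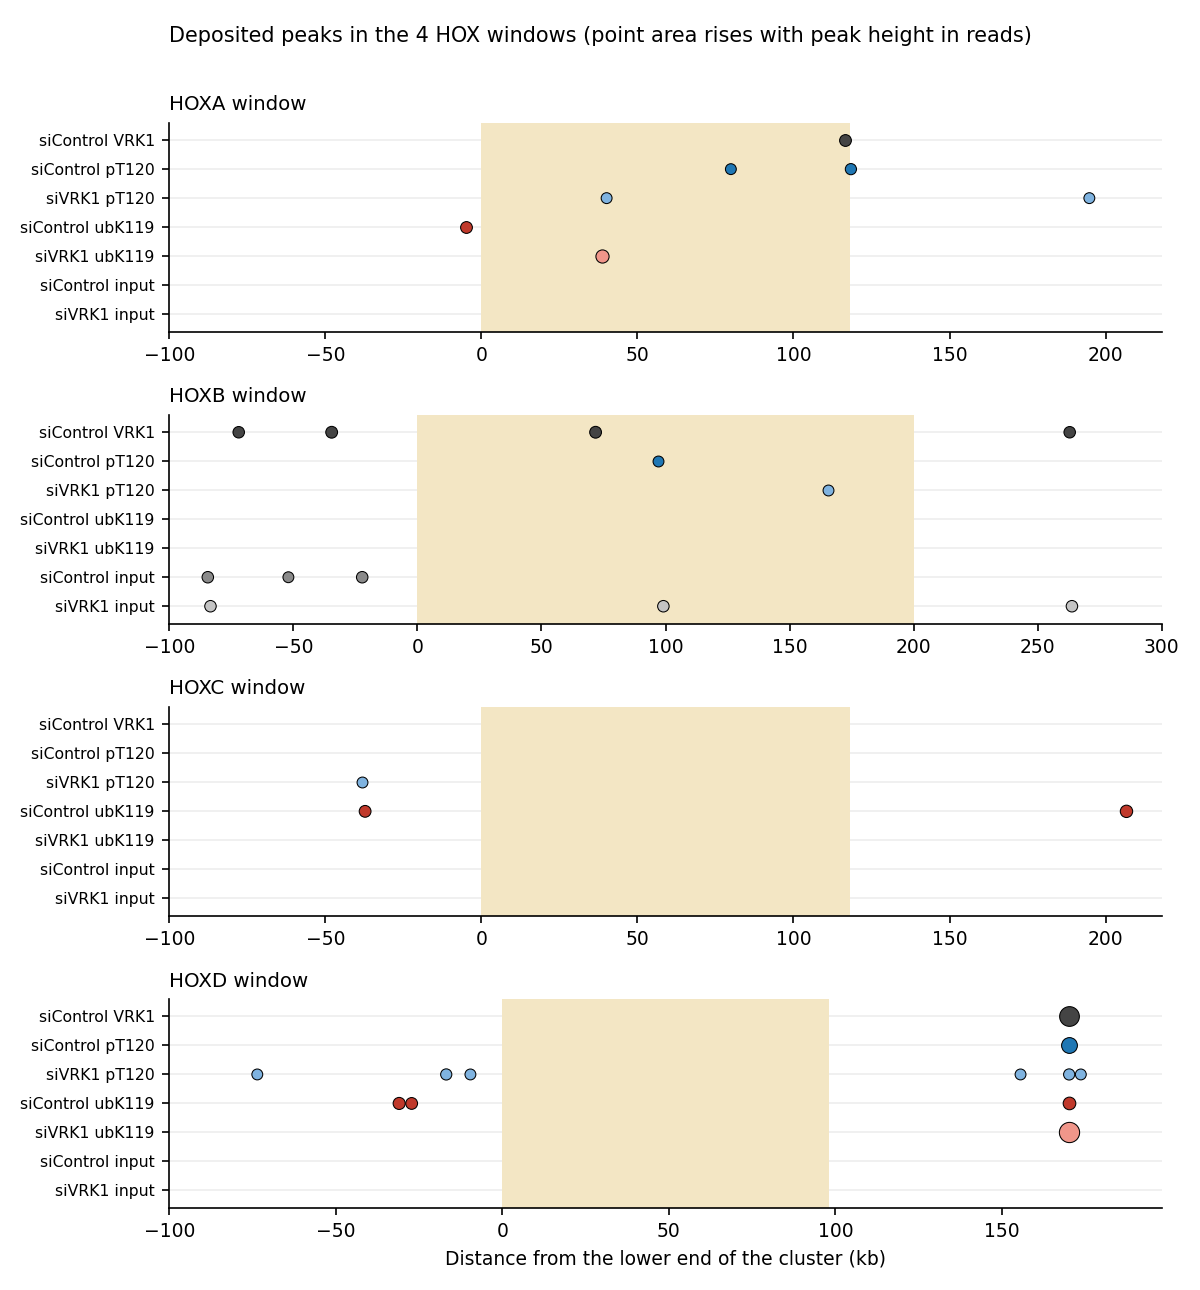
Deposited peaks in the 4 HOX windows, 1 row per list, against the distance in kb from the lower end of each cluster; shading marks the cluster and the point area rises with the peak height in reads. HOXC and HOXD are empty inside the shading, and 5 of the 12 HOXD points, in 5 different rows, stand in line at 170.1 to 170.3 kb.

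In whole windows, margins included, the lists held between 2 and 10 peaks each. The siControl ubK119 list had 6 peaks, or 4.5 per Mb (1.65 to 9.79), which was 0.461 times (0.167 to 1.03) the 2 Mb on each side but 0.947 times (0.327 to 2.26) the nearest 1 Mb. The siVRK1 ubK119 list had 2, or 0.276 times (0.0329 to 1.03) its flanks. The VRK1 list had 6 peaks, at 0.782 times (0.280 to 1.77) its 2 Mb flanks and 1.56 times (0.521 to 3.95) the nearest 1 Mb, and the siVRK1 pT120 list 10, at 0.736 times (0.346 to 1.39). The siControl pT120 list had 4 peaks, at 1.78 times its flanks and an interval (0.452 to 5.10) that includes 1, and without the HOXA window it stood at 0.945 times (0.108 to 3.79). The siControl and siVRK1 inputs had 3 peaks each, at 0.467 (0.0943 to 1.42) and 0.387 times (0.0784 to 1.17) their flanks. Together the inputs stood at 0.423 times (0.153 to 0.941) their flanks, so input DNA had few peaks in the windows too.

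**Figure D2:**
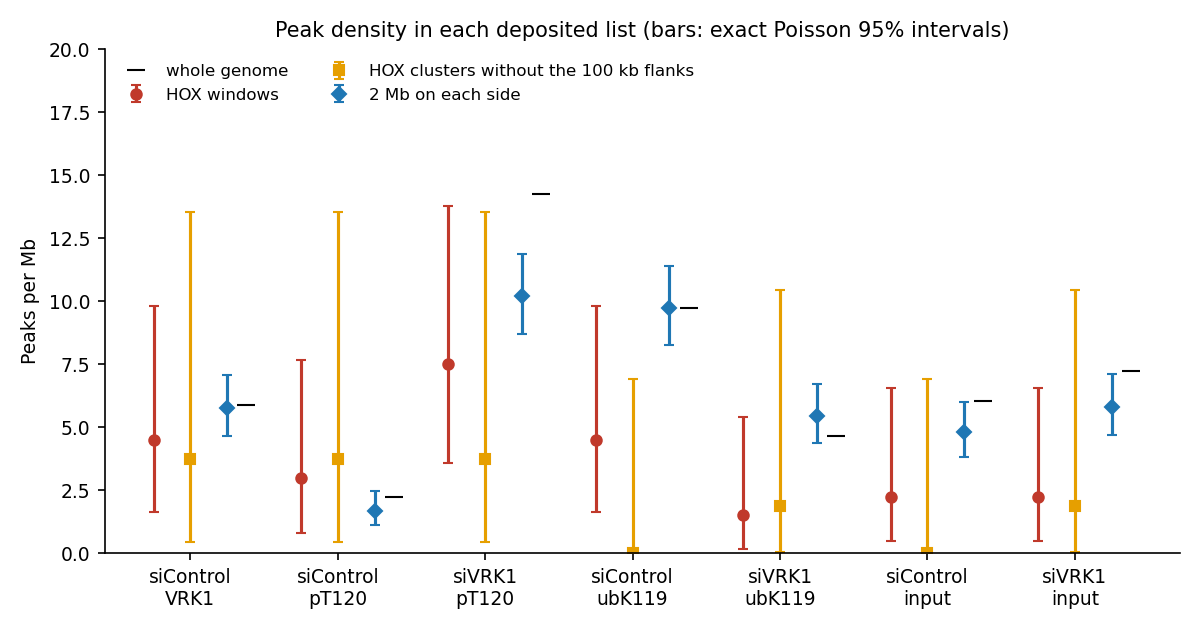
Peaks per Mb of each deposited list in the HOX windows, in the clusters without margins, in the 2 Mb on each side and in the whole genome (the dashes, without error); bars are exact Poisson 95% intervals. The window point lies below the flank point in 6 of the 7 lists, with siControl pT120 as the exception, and the cluster point for siControl ubK119 is at 0.

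Summed over the 5 antibody lists, the windows held 28 peaks, 21.0 per Mb, against 525 peaks and 32.8 per Mb in the flanks, a ratio of 0.640 (0.421 to 0.935). This shortfall depended on HOXB. The HOXB window had 6 antibody peaks against 241 in its flanks, a ratio of 0.249 (0.0905 to 0.550). Without HOXB the ratio of the other windows was 0.995 (0.614 to 1.54), where 1 region beside HOXD, called in all 5 lists, counts 5 times. The shortfall also depended on other choices: within 1 Mb on each side the ratio was 0.971 (0.627 to 1.45), over peaks outside input peaks 0.740 (0.486 to 1.08) and without HOXA 0.649 (0.397 to 1.01). Other choices deepened it. The ratio was 0.416 (0.2355 to 0.682) without HOXD and 0.3995 (0.160 to 0.829) in the clusters without margins. Over peaks of at least 18 reads it was 0.387 (0.124 to 0.9225). HOXA stood at 0.616 times (0.243 to 1.30) and HOXC at 0.609 times (0.122 to 1.86) their flanks. HOXD stood above its flanks, at 2.04 times (1.01 to 3.76), but 5 of its 12 peaks were the same region called with every antibody. Counted as merged regions, HOXD had 8 against 79 in its flanks, a ratio of 1.36 (0.567 to 2.81).

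The flanks were cut into 46 stretches, each as long as the window they adjoin, to show how the windows compare with their surroundings piece by piece. The HOXB window, with 6 antibody peaks, lay near the bottom of a range from 4 to 73 with a median of 18, and 9 of 10 stretches had more. For HOXA, 8 of 12 stretches had more than its 7 peaks. For HOXC 6 of 12 had more than its 3. None of the 12 stretches beside HOXD had more than its 12 peaks, the highest having 11. No window had the fewest antibody peaks of its surroundings, but neither ubK119 list had a peak in the HOXB window, where 8 of 10 stretches held more siControl and 9 of 10 more siVRK1 ubK119 peaks.

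Most HOX peaks were close to the weakest that the lists contain. Of the 34 peaks, 26 (76.5%) reached at most 1 read above the height minimum of their list, against 64.7% of all deposited peaks. Of the 34, 17 (50%) had the shortest length in the lists, 200 bp, against 32.9% of all peaks. Outside the one region called with every antibody, the 29 remaining HOX peaks reached 12 to 20 reads and at most 0.667 RPM (reads scaled to the library total) at their summit. The authors' caller gave a p-value under 0.05 to 4 of the 34, and to 16.7% of all peaks. Of the 30 merged regions 29 were called in 1 list only, against 89.4% in the genome and 94.8% in the flanks. Of the remaining HOX peaks, each found in a single library, those of pT120, ubK119 and input had no called counterpart under the other siRNA. For the VRK1 peaks none could exist, since VRK1 was sequenced after siControl alone.

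The HOXA window held 7 regions, of which 4 lay inside the cluster. A region of 356 bp, chr7:27170759-27171115, 38.8 kb above the lower end of the cluster, was the only ubK119 peak inside any HOX cluster and was called after siVRK1. It had 23 ubK119 reads in siVRK1 and 5 in siControl cells, and 12 and 5 reads in the inputs of siVRK1 and siControl cells. Over the input of the same siRNA, siVRK1 ubK119 stood at 2.13 times (1.02 to 4.69). VRK1 had 11 reads there and pT120 had 9 in siControl and 5 in siVRK1 cells. The choice of a siVRK1 ubK119 peak favours a high siVRK1 level, so the 6.21-fold (2.31 to 20.9) difference in ubK119 RPM is a description. The gap to the next region, chr7:27172131-27172331, was 1016 bp. That region was called with pT120 after siVRK1, from 9 reads against 1 in siControl cells, and ubK119 had 1 and 4 reads there.

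The other 2 regions inside the HOXA cluster were called in siControl cells. The siControl pT120 peak chr7:27211937-27212137 had 11 pT120 reads in siControl and 3 in siVRK1 cells, with 6 and 4 reads in the inputs. The VRK1 peak chr7:27248551-27248821 had 17 VRK1 reads, 7 pT120 reads under each siRNA, and 3 and 10 reads in the siControl and siVRK1 inputs. VRK1 stood there at 4.76 times (1.38 to 25.3) its input, a description, since a VRK1 peak chose the region. A siControl pT120 peak of 10 reads, chr7:27250423-27250626, followed 0.423 kb beyond the end of the cluster, with 2 pT120 reads after siVRK1. The siControl ubK119 peak chr7:27127128-27127328, 4.67 kb below the lower end, had 15 reads against 3 after siVRK1, and 0 and 4 reads in the inputs. The last region, 76.8 kb above the cluster, was a siVRK1 pT120 peak of 10 reads. VRK1, pT120 and ubK119 thus each had a peak near HOXA, and none of these peaks overlapped another.

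HOXB held 12 regions, of which 6 were input peaks, 4 VRK1 peaks and 2 pT120 peaks. Inside the cluster, the VRK1 peak chr17:46677816-46678126 had 18 VRK1 reads against 2 in the siControl input, 7.55 times (1.81 to 67.1) its input, where the choice of VRK1 peaks favours VRK1 over input here and at the other VRK1 peaks. At this region, which was not chosen by pT120 or ubK119, pT120 had 4 reads in siControl and 0 in siVRK1 cells, where 0 allows up to 0.0833 RPM. The ubK119 libraries had 3 and 11 reads there, a ratio of 4.95 (1.31 to 27.6), while the inputs had 2 and 10. Over input, siVRK1 ubK119 stood at 1.22 times (0.471 to 3.21), so the higher ubK119 count came with a higher input count. The siControl pT120 peak chr17:46702826-46703026 had 13 pT120 reads in siControl and 0 in siVRK1 cells, and 0 and 3 input reads. It lay 2112 bp below a peak of the siVRK1 input, chr17:46705138-46705338, with 13 reads against 1 in the siControl input. The fourth region inside the cluster, chr17:46771389-46771591, was a siVRK1 pT120 peak of 10 reads against 2 in siControl cells.

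The other 8 HOXB regions lay in the margins, 6 below the cluster and 2 above it. Of these, 5 were peaks of input DNA and 3 were VRK1 peaks. The highest VRK1 count in this window, 21 reads, was at chr17:46571446-46571749, 34.3 kb below the cluster, where the siControl input had 7 reads and VRK1 stood at 2.52 times (1.03 to 7.01) input. There pT120 had 7 reads in siControl and 2 in siVRK1 cells, which is 0.164 times (0.0166 to 0.862) by RPM, and ubK119 had 8 and 10. The siControl input peak chr17:46521527-46521862, 84.1 kb below the cluster, had 19 and 5 reads in the siControl and siVRK1 inputs, and pT120 had 10 and 2 reads in the same cells, 0.115 times (0.0122 to 0.539) by RPM. Inputs and pT120 were both higher in siControl cells at that region, where the choice of a siControl input peak favours the siControl input. VRK1 peaks thus occurred on both sides of the HOXB cluster and inside it, at 13 to 21 reads each.

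HOXC held the fewest regions, 3, and none of them lay inside the cluster. A siVRK1 pT120 peak of 8 reads, chr12:54293756-54293956, and a siControl ubK119 peak of 12 reads, chr12:54294746-54294946, were 790 bp apart and 38.0 and 37.1 kb below the cluster, on the HOXC13 side. The ubK119 peak had 1 read after siVRK1, and 6 and 0 reads in the inputs. The siControl ubK119 peak chr12:54538676-54538931, 88.7 kb above the cluster, had 19 reads against 7 after siVRK1, with 3 and 7 reads in the inputs. Between them 243.7 kb, the whole cluster included, carried no antibody peak. The 4 Mb around HOXC held 0 siControl pT120 and 9 VRK1 peaks but 34 siControl ubK119 peaks, or 8.5 per Mb.

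The HOXD cluster itself was empty in all 7 lists, with 165.0 kb between the antibody peaks on its sides. All 8 regions lay in the margins. On the HOXD13 and EVX2 side there were 5, with siVRK1 pT120 peaks 73.3, 16.6 and 9.38 kb from the cluster and siControl ubK119 peaks 30.7 and 27.0 kb from it. The pT120 peaks had 12, 11 and 10 reads in siVRK1 and 4, 0 and 1 reads in siControl cells. The ubK119 peaks had 16 and 14 reads in siControl and 3 and 2 reads in siVRK1 cells. In each of these regions the library of the call was the highest, which the choice of the peak favours, and VRK1 had at most 6 reads. On the HOXD1 and MTX2 side lay 2 further siVRK1 pT120 peaks of 13 and 12 reads, 57.6 and 75.7 kb from the cluster, and the region described next.

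The region chr2:177127132-177127524, 72.1 kb beyond the HOXD cluster on the HOXD1 side, was the only HOX region called in more than 1 list. It was called with VRK1, with pT120 and ubK119 under both siRNAs, and in neither input. VRK1 had 52 reads, or 1.62 RPM (1.21 to 2.13). For pT120 it had 31 reads in siControl and 13 in siVRK1 cells, or 1.50 (1.02 to 2.13) and 0.361 RPM (0.192 to 0.617). For ubK119 it had 18 and 57 reads, or 0.445 (0.264 to 0.703) and 1.90 RPM (1.44 to 2.46). The inputs had 5 and 3 reads, or 0.186 (0.0604 to 0.434) and 0.0902 RPM (0.0186 to 0.264). VRK1, siControl pT120 and siVRK1 ubK119 were thus high and the other marks low, and the intervals of both siRNAs did not overlap for pT120 or for ubK119.

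**Figure D3:**
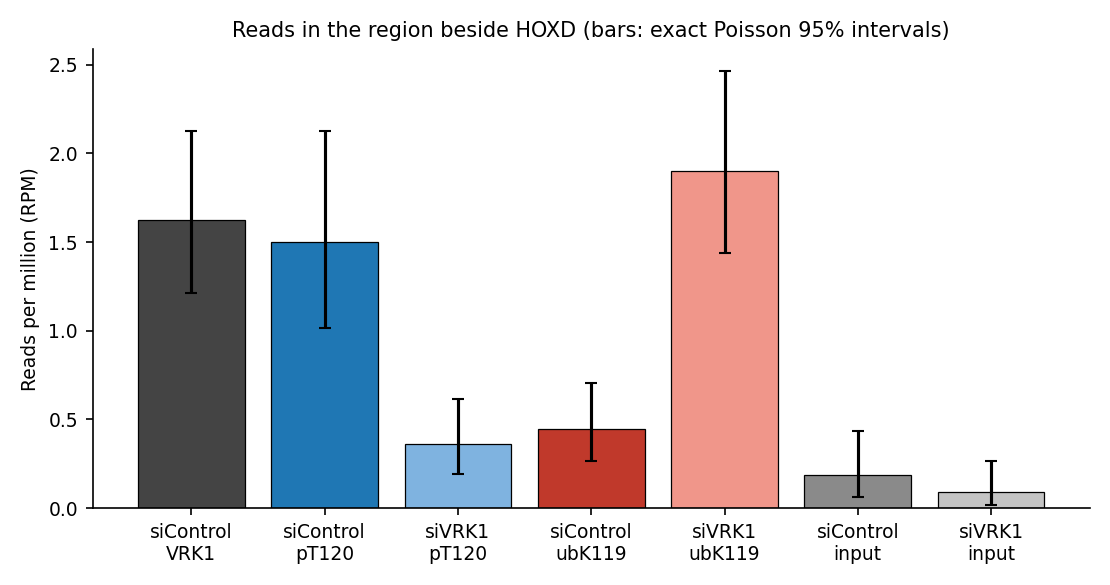
RPM of each library in the region 72.1 kb beyond HOXD, with exact Poisson 95% intervals of the read number. The bars of siControl pT120 (1.50 RPM) and siVRK1 ubK119 (1.90 RPM) stand above those of the same antibody under the other siRNA (0.361 and 0.445 RPM).

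This region was called with both marks, so its ratios are descriptions. The ratio of siVRK1 to siControl was 0.241 (0.116 to 0.474) with pT120 here, and with ubK119 4.27 (2.48 to 7.71). Scaled to the reads in input peaks with at most 100 input reads, the values were 0.396 (0.190 to 0.779) and 2.90 (1.68 to 5.24). Over the input of the same siRNA, VRK1 stood at 8.73 times (3.51 to 28). By the same measure pT120 stood at 8.06 times (3.11 to 26.6) in siControl and 4 times (1.10 to 21.9) in siVRK1 cells, and ubK119 at 2.39 times (0.857 to 8.25) and 21.1 times (6.86 to 105.2). With 5 and 3 input reads, the intervals over input are wide, and those of both siRNAs overlap for each mark. The reads were narrow in every library. The VRK1, siControl pT120 and siControl ubK119 peaks all began at 177127313 and ended between 177127523 and 177127525. In these 210 to 212 bp lay 52 of the 52 VRK1 reads, 31 of the 31 siControl pT120 reads and 55 of the 57 siVRK1 ubK119 reads of the whole region.

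Of 1351 merged regions called in all 5 antibody lists, 29 lay outside the inputs, and 1 of these in the HOX windows. The 29 were 0.0359% of the 80838 merged regions outside the inputs. Over the 29, the pT120 ratio had a median of 0.423 and a range from 0.213 to 1.34. The region beside HOXD had the fourth lowest pT120 ratio. The ubK119 ratio had a median of 1.48 and a range from 0.691 to 4.27, and the region beside HOXD was the highest of the 29. For pT120 19 of the 29 intervals lay below 1, for ubK119 12 lay above 1, and 11 regions had both. These ratios are by library total, and all 29 regions were called with both marks. The whole genome lay on the same sides of 1: over 43404 regions of the VRK1 and input lists, pT120 stood at 0.603 and ubK119 at 1.50. The share of such intervals over all regions was not counted, so the counts are not a trait of the 29. The interval of the ubK119 ratio beside HOXD (2.48 to 7.71) includes the ratios of the next regions, 3.42 on chromosome 1 (chr1:16512538-16512931) and 3.22 on chromosomes 1 (chr1:205204806-205205198) and 2 (chr2:232544235-232544632), so its rank is a description. The 29 regions were 211 to 796 bp long with a median of 373 bp.

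**Figure D4:**
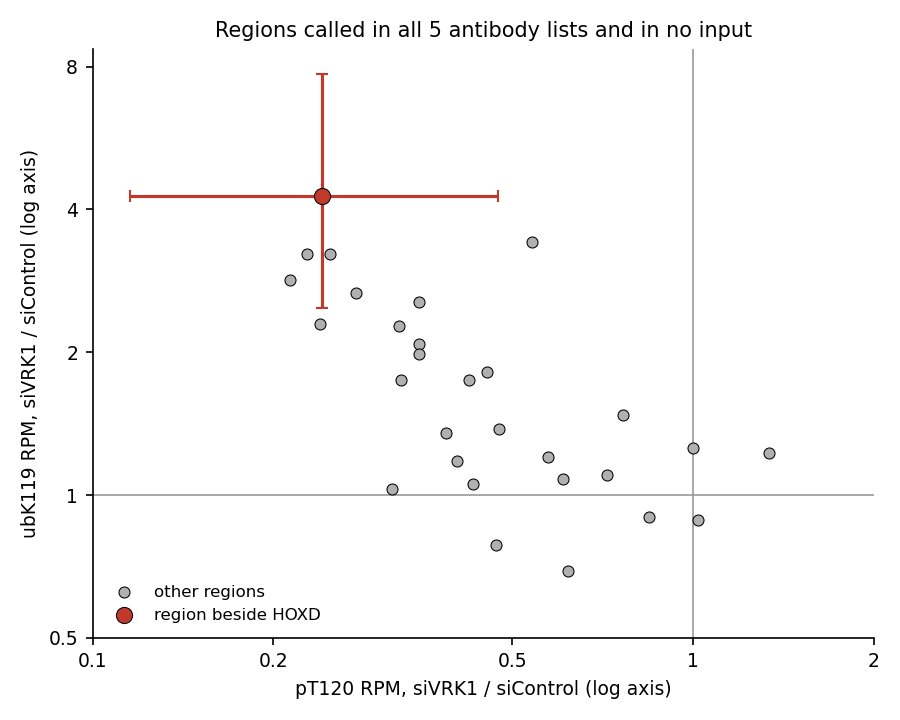
Ratio of siVRK1 to siControl RPM for pT120 (horizontal) and ubK119 (vertical), both on log axes, in the 29 regions called in all 5 antibody lists and in no input; bars are 95% intervals for the region beside HOXD. That region lies at 0.241 and 4.27, at the upper left of the 29 points.

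Each mark was next compared between the siRNAs over the HOX regions that were not called with that mark. The lists differ in the lowest peak they hold, 0.580 RPM for siControl and 0.333 RPM for siVRK1 pT120, and 0.371 and 0.60 RPM for siControl and siVRK1 ubK119. Leaving out called regions therefore removes high values from a lower level on in siVRK1 pT120 and siControl ubK119, which tilts these sums towards a pT120 ratio below 1 and a ubK119 ratio above 1. In the 17 regions not called with pT120, the pT120 libraries had 64 reads (3.09 RPM) in siControl and 47 reads (1.30 RPM) after siVRK1. The ratio was 0.422 (0.283 to 0.624). The same ratio was 0.510 (0.475 to 0.548) in the 424 such regions of the flanks and 0.567 in the genome, and the HOX interval includes both. HOXB gave 0.273 (0.149 to 0.482), against 0.379 (0.339 to 0.424) in its flanks. HOXA gave 0.610 (0.290 to 1.29), HOXD 0.459 (0.0911 to 2.13) and HOXC 1.34 (0.306 to 8.03), from 7 and 3 reads. Without the HOXB window the ratio was 0.670 with an interval (0.374 to 1.21) that includes 1. Scaled to the reads in input peaks with at most 100 input reads, it was 0.693 (0.465 to 1.03). With at least 10 reads in both pT120 libraries together, 2 of 3 HOX regions had a ratio of at most 0.5, against 43.7% of such regions in the genome. These were the siControl input peak below HOXB and the siVRK1 ubK119 peak inside HOXA, with ratios of 0.115 and 0.319 (0.0840 to 1.06).

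For ubK119, the 23 HOX regions not called with ubK119 had 104 reads (2.57 RPM) in siControl and 103 reads (3.44 RPM) after siVRK1, which gives 1.34 (1.01 to 1.77). The flanks had 1.35 (1.27 to 1.44) and the genome 1.17. HOXB stood highest, with 1.73 (1.21 to 2.49), against 1.55 (1.41 to 1.71) in its own flanks. HOXA stood at 0.821 (0.391 to 1.67), HOXC at 0.899 (0.187 to 3.79) and HOXD at 0.899 (0.395 to 1.97). The flanks of HOXA, HOXC and HOXD had 1.19, 1.78 and 1.025. Without HOXB the ratio was 0.861 (0.526 to 1.39), and scaled to the reads in all input peaks it was 0.936 (0.706 to 1.24). The direction of the ubK119 difference in the HOX windows therefore turned with both choices. With at least 10 reads in both ubK119 libraries together, 3 of 11 HOX regions had a ratio of at least 2, against 30.6% of such regions in the genome. All 3 lay in the HOXB window: the VRK1 peak inside the cluster and the siControl input peaks 51.8 and 21.9 kb below it.

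The same ratios were also taken over the 12 HOX regions of the VRK1 and input lists, called with the mark or not, where the calls of the mark choose nothing. By library total pT120 stood at 0.287 (0.190 to 0.427), from 39 and 78 reads, against 0.491 (0.450 to 0.536) in 225 regions of the flanks. Without the region beside HOXD it stood at 0.318 (0.189 to 0.524). For ubK119 the value was 2.32 (1.73 to 3.13), from 129 and 75 reads, against 1.68 (1.57 to 1.8) in the flanks, and 1.70 (1.19 to 2.46) without the region beside HOXD. Without that 1 region the HOX intervals include the values of the flanks for both marks. Over such regions of the genome pT120 stood at 0.603 and ubK119 at 1.50. Both pT120 intervals of the HOX windows lie below the genome value, as does the value of the flanks. The ubK119 interval includes the genome value only without the region beside HOXD.

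The inputs gave the background of these ratios. In the 24 HOX regions called in neither input, the input ratio of siVRK1 to siControl was 1.22 (0.905 to 1.65), against 1.19 (1.11 to 1.26) in the flanks. In the 6 such regions of HOXB it was 1.86 (1.02 to 3.50), against 1.35 (1.23 to 1.49) in the flanks of HOXB. At the siControl input peaks 51.8 and 21.9 kb below HOXB, where ubK119 was higher after siVRK1, the input ratio was 0.606 (0.226 to 1.57) and 0.593 (0.246 to 1.38). Both regions were chosen as siControl input peaks, which favours an input ratio below 1, so these values are descriptions. With at least 10 reads in both inputs together, 2 of 8 HOX regions had an input ratio of at least 2, against 16.9% in the genome.

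Over the input of the same siRNA, siVRK1 pT120 was the one antibody library whose interval did not include 1 in the HOX windows when scaled by library total. Regions called in an input or with the antibody compared were left out. The lowest peak was 0.333 RPM for siVRK1 pT120 and 0.421 RPM for the siVRK1 input, which tilts that ratio below 1. For siControl pT120 and the siControl input it was 0.580 and 0.446 RPM, which tilts that ratio above 1. For ubK119 it was 0.371 RPM in siControl cells, below its input, and 0.60 RPM in siVRK1 cells, above its input. This tilts the siControl ubK119 ratio below 1 and the siVRK1 ubK119 ratio above 1. VRK1 stood at 0.95 times (0.646 to 1.40) its input in 18 regions, siControl pT120 at 1.23 times (0.771 to 1.98) in 11 regions, and siControl and siVRK1 ubK119 at 1.02 (0.706 to 1.48) and 0.842 times (0.597 to 1.18) in 17 regions. The flanks had 1.10, 1.14, 1.01 and 0.918. In the 11 regions the siVRK1 pT120 library had 35 reads (0.971 RPM) against 74 reads (2.22 RPM) in its input, a ratio of 0.437 (0.283 to 0.661), with 0.497 (0.458 to 0.538) in the flanks and 0.575 in the genome. With at least 10 reads in both libraries together, 4 of 6 HOX regions lay at 0.5 times input or less, against 44.4% in the genome. Scaled to the reads in input peaks with at most 100 input reads, the HOX ratio was 1.04 (0.677 to 1.58), so the low level of siVRK1 pT120 relative to input was not found on that scale. On the same scale siControl ubK119 stood at 1.78 times (1.23 to 2.59) its input and siControl pT120 at 1.68 times (1.05 to 2.69). VRK1 stood at 1.21 times (0.820 to 1.78) and siVRK1 ubK119 at 1.07 times (0.757 to 1.50). The peaks that set this scale were called in the inputs, which favours input reads there and raises every ratio over input. These values are therefore descriptions and do not show enrichment over input. Without the HOXA window VRK1 stood at 0.568 times (0.319 to 0.992) its input by library total. In the 3 such regions inside clusters, siControl pT120 stood at 2.60 times (1.16 to 6.22) its input, from 20 reads against 10.

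**Figure D5:**
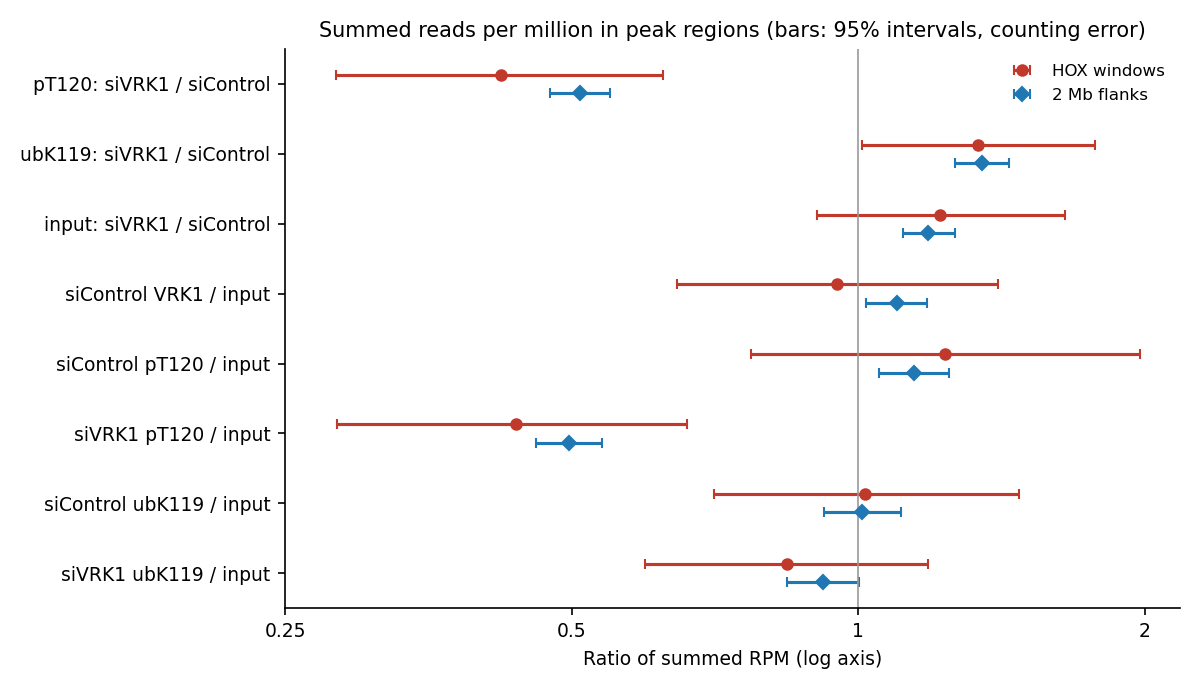
Ratios of summed RPM over peak regions in the HOX windows (circles) and in the 2 Mb on each side (diamonds), on a log axis, with 95% intervals of counting error; regions called in the lists compared are left out. Every HOX interval includes the value of the flanks.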

How the data were processed

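Fixed and sonicated chromatin was immunoprecipitated and, per the labels' protocols, amplified by 20 cycles of PCR and sequenced for 36 cycles. CASAVA 1.8.2, Bowtie 0.12.8, Partek and the build hg19 are listed in the submitters' processing notes, without their roles. Per the file headers, each deposited list holds the peaks of 1 library. The height of a peak is a deposited signal (extended reads at its summit), which the authors also gave as RPM, and their quotient gave the library totals. The p-value of the authors' caller served only to describe the lists. The deposited count of reads in a peak is listed for all 7 libraries and is not normalized, per the file headers. The deposited percent of overlap with other lists was not used. How peaks were called, duplicates treated and inputs used is not given in the sources, nor is whether positions count from 0 or 1.

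Peaks overlapping by at least 1 bp were merged, and the longest peak of a merged region gave its counts, divided by the library total to give RPM. A peak was in a window if it overlapped it. Regions with more than 100 reads in either input were left out of summed ratios, which affected 0 HOX regions. Summed ratios of a mark used regions not called with it, while single regions called with it are described. Ratios have exact conditional binomial intervals and single counts exact Poisson intervals (scipy 1.17.1), and the ratio was tested on simulated data. A count of 0 reads was taken to allow 3 reads. Single regions were counted past a ratio of 2 or 0.5 with at least 10 reads in both libraries together. The rule for named regions took the highest peak of each list in each cluster, regions called with several antibodies, and the longest peak. Other regions are named beside these, after their values were seen. The members and lists were chosen with earlier results of these data known. The alternatives tried were other region sets, representatives, overlaps, heights, scales and flanks, and leaving out each cluster.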

Additional observations from a re-analysis of the deposited data

How the results depend on the processing

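Of 165 alternative values for 18 results under 14 settings, 137 stayed within the counting interval of the value reported, 37 of them because the setting changed nothing. In all, 17 lay on the other side of 1, and in 4 of these the interval reported had not included 1. For the density of peaks relative to the flanks, the clusters without their margins gave 0 for siControl ubK119, 0 for the siControl input and 0.3995 for the 5 antibody lists together. With 1 Mb on each side the antibody lists gave 0.971. With peaks of at least 18 reads, siVRK1 pT120 and both inputs gave 0, and the antibody lists 0.387. Without the HOXB window siControl pT120 gave 9.64, both inputs 0 and the antibody lists 0.995. Without the HOXD window the antibody lists gave 0.416.

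Scaled to the reads in input peaks, the ubK119 ratio turned to 0.936, siVRK1 pT120 over input moved to 0.785 and siControl ubK119 over input to 1.65. On the scale of input peaks with at most 100 input reads, chosen after seeing the data, the ubK119 ratio turned to 0.908 and siVRK1 pT120 over input to 1.04, while the pT120 ratio moved to 0.693 and siControl ubK119 over input to 1.78. Both scales rest on peaks called in the inputs, which raises the ratios over input. Inside the clusters VRK1 over input was 1.47 and siControl pT120 over input 2.60, and with peaks of at least 18 reads they were 1.85 and 2.34. Without the HOXA window VRK1 over input was 0.568. Without the HOXB window the pT120 ratio was 0.670 and the ubK119 ratio turned to 0.861. The cause was not tested. Leaving out each cluster in turn was, for the density, also chosen after seeing the data. Over regions of the VRK1 and input lists, also chosen after seeing the data, the ubK119 ratio was 2.32. In the region beside HOXD only the scales could move the ratios.

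No paired analysis was possible because there was 1 library per condition. The main summed ratios over all HOX windows rest on 35 to 116 reads per library. Those of single windows or of clusters without margins often rest on fewer, such as 7 and 3 for pT120 in HOXC. Most single regions rest on fewer than 20.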
